A study of Mus musculus with 8 samples.

Results

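The genes described here flank Tet1 on mouse chromosome 10. A gene was a member when a non-control probe with its symbol lay between positions 52000000 and 72000000 of chromosome 10 (mm9), and its brightest probe there stood for it. Tet1 itself and Egr2 were left out. The rule used position and signal brightness and no difference between genotypes. It gave 135 genes of the 23212 with a symbol on the array, measured by 182 probes.

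The study compared Tet1 knockout (KO) with wild type (WT) mice in brain cortex and in hippocampus. Both genotypes carried the label 129 C57BL6 for genetic background, and the mice were naive. RNA of each tissue was labelled from 0.5 µg of total RNA, WT with Cy3 and KO with Cy5, and hybridised to 60-base probes on 4 two-colour Agilent arrays. The 8 samples are therefore the 2 channels of 4 arrays, 2 arrays a tissue, and no array had the dyes swapped, so dye and genotype cannot be told apart. The labels do not state that replicates came from separate animals, so the p-values cover no more than the variation from sample to sample, part or all of which could be technical. Age, the removed piece of Tet1 and any breeding history were not given in the sources used here.

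As background, TET1 is an enzyme that oxidises 5-methylcytosine. A gene targeted in embryonic stem cells of one mouse strain keeps a stretch of that strain's chromosome around it when the line is crossed to another strain, and this stretch shortens as the line is bred on. Genes in it can differ in level or in match to an array probe between knockout and wild type for reasons of strain, which is the question behind looking at neighbours by distance. Nothing in the files gives the alleles of these mice, and the strain of the segment was not tested.

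Tet1 was checked first. Its brightest probe, at 62274448 to 62274507, gave log2 KO over WT values of -0.18 and -0.20 in cortex and -0.23 and -0.10 in hippocampus (mean -0.18 ± 0.05, limma SE, adjusted p = 0.081). A further Tet1 probe, well above background in all groups, gave a mean of -0.22. A dimmer one, not well above background on any WT array, gave 0.21. All 4 arrays were below 0 on the brightest probe, by small amounts, and the call was not made. Whether these probes lie in the removed piece is not known, so they do not check the genotype labels.

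Of the 135 members, 109 were tested and 26 were not, because their probe was not well above background on both arrays of any group. Among the 109, 81 were well above background on all arrays, and 18 were so only in KO groups. Of the tested members, which that filter selects for signal, the share well above background was 77.1% to 81.7% in the WT channel and 98.2% to 99.1% in the KO channel over the 4 arrays. Over all probes, with no filter, 49.7% to 51.7% were well above background in Cy3 and 66.6% to 67.2% in Cy5. The Cy5 share was the higher one in both sets, whose shares are not otherwise comparable. No spot was saturated. Arrays correlated with each other at r = 0.39 to 0.70 across the 109 members and at 0.32 to 0.64 across all genes, which are not independent replicates.

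The probes of the nearest neighbours are shown because distance is counted from Tet1, and those of Dna2, Ddx21 and Sar1a as examples where a second probe of the gene gave another value. Each line gives the first 30 of the probe's 60 bases, 5′ to 3′, as the array files list them, with no letter marked.
Ccar1 probe: ggatgaactttgttatagtttccccaataa
Slc25a16 probe: cttggtatgtactaggaaatgtaaatggac
Dna2 brighter probe: aactaccaacttcgggtctgattcccaaat
Dna2 dimmer probe: cacccaatattttcccgaaaaacctttgat
Ddx21 brighter probe: aaatgatctgtcataaaccaaacagtgaag
Ddx21 dimmer probe: ttgcatcgttttccaacatacttttagatt
Sar1a brighter probe: gtgtcctgtttcagcaaaagtaaaactgtc
Sar1a dimmer probe: gttgagcttaatgctttaatgactgatgaa
The Ccar1 probe lies at chr10:62207215-62207274 on the minus strand and the Slc25a16 probe at chr10:62408580-62408639 on the plus strand. The Dna2 probes lie at chr10:62436422-62436481 and chr10:62427681-62427740, both on the plus strand. The Ddx21 probes lie at chr10:62043317-62043376 and chr10:62044862-62044921, both on the minus strand. The brighter Sar1a probe lies at chr10:61155962-61156021 on the plus strand. No mm9 annotation was used here, so exon, intron or UTR was not assigned.

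The genes next to Tet1 on either side had small log2 ratios. Ccar1, a transcriptional coactivator at -0.067 Mb (negative distances run toward lower coordinates), gave 0.12 and 0.11 in cortex and 0.13 and 0.20 in hippocampus. All 4 arrays were above 0 within a narrow range, with a mean of 0.14 ± 0.04 and adjusted p = 0.11 by limma. Slc25a16, a mitochondrial carrier at 0.134 Mb, gave -0.12 and -0.08 in cortex and 0.17 and 0.12 in hippocampus. Both cortex arrays were below 0 and both hippocampus arrays above it, and the mean was 0.02 ± 0.04 (adjusted p = 0.75). Neither neighbour passed the test.

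Within 1 Mb, 27 members were tested and 4 passed the threshold of adjusted p 0.05 in the mean of both tissues, all higher in KO. Over all 16524 genes tested, 10.9% passed, and within 1 Mb the share was 14.8%. Dna2, a helicase and nuclease of DNA replication and repair at 0.162 Mb, gave 0.44 and 0.83 in cortex and 0.78 and 0.60 in hippocampus. Every array was above 0, with a mean of 0.66 ± 0.08 (adjusted p = 0.029). The Dna2 probe was not well above background on any WT array, the bound on its fold was under 1, and its dimmer probe, not well above background in any group, had a mean of -0.13. With each array centred on its median in place of loess, the mean of the brighter probe was -0.11.

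Hkdc1, which holds hexokinase domains, gave 0.43 and 0.33 in cortex and 0.40 and 0.21 in hippocampus. It was well above background on all arrays, all 4 were above 0, and the mean was 0.34 ± 0.06 (adjusted p = 0.039). Stox1, a winged-helix protein at -0.152 Mb, gave 0.19 and 0.31 in cortex and 0.28 and 0.51 in hippocampus. Its 4 arrays were also above 0, with a mean of 0.32 ± 0.06 (adjusted p = 0.045), and with arrays centred on the median of the genes tested it was -0.15. Pbld2 gave 0.30 and 0.32 in cortex and 0.20 and 0.19 in hippocampus. Its mean was 0.25 ± 0.04 (adjusted p = 0.041), its probe was not well above background on any WT array, and with median centring it was -0.23. Its paralogue Pbld1, well above background on all arrays, gave 0.11 to 0.41 with a mean of 0.23 and did not pass (adjusted p = 0.090), and how far the paired probes share signal was not tested.

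**Figure D1:**
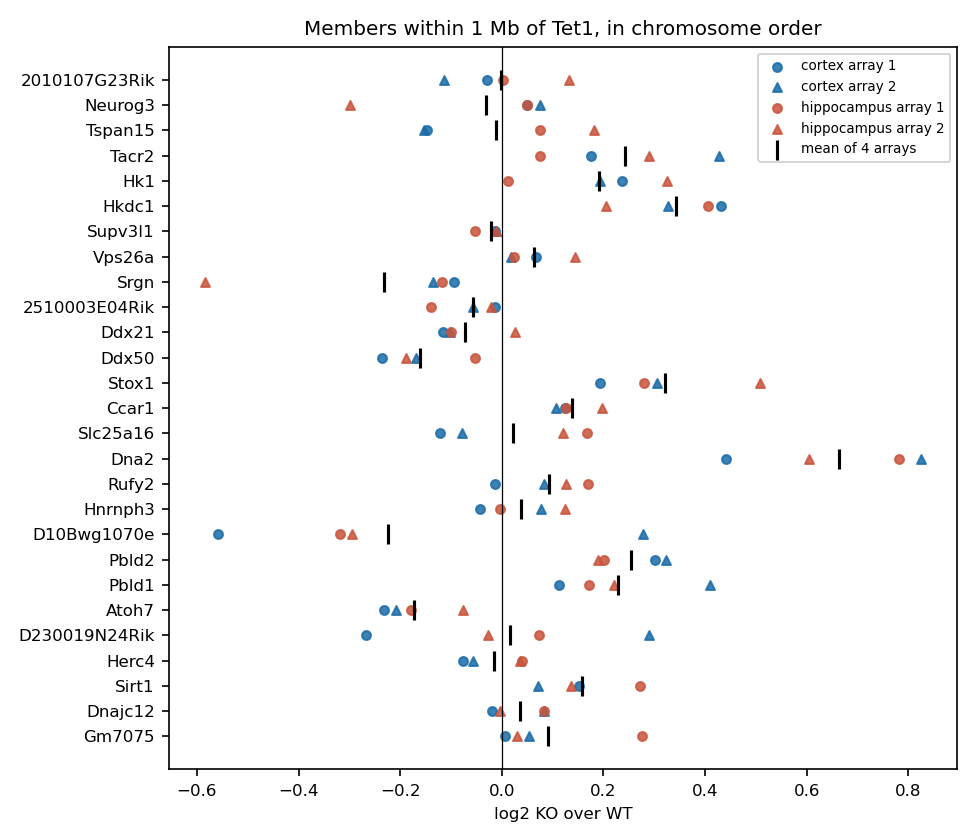
Log2 KO over WT on each of the 4 arrays for the 27 tested members within 1 Mb of Tet1, in chromosome order. Points are arrays and the bar is their mean. Dna2 has the highest mean, 0.66, and Hkdc1 and Stox1 follow at 0.34 and 0.32.

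The other genes within 1 Mb were measured as follows. The RNA helicases Ddx21 and Ddx50 had means of -0.07 and -0.16, and the adjusted p of Ddx50 was 0.10. The dimmer Ddx21 probe, well above background in all groups, gave 0.22 to 0.34 on the 4 arrays with a mean of 0.27, while the brighter one gave -0.12 to 0.03. The 2 probes of that gene thus gave values on opposite sides of 0. Hk1, the main brain hexokinase, had a mean of 0.19 on its brightest probe, while its other probes, well above background in all groups, had -0.06 and 0.10. Tacr2, the neurokinin A receptor, had a mean of 0.24 on its brightest probe. Its dimmer probe, not well above background on any WT array, gave -0.20 to 0.38 with a mean of 0.04. The Tacr2 probes lie close to the Hk1 probes but on the other strand, plus for Tacr2 and minus for Hk1. The brightest Tacr2 probe holds a run of CA repeats and its dimmer probe does not. Their average log2 signals were 14.02 and 7.08, and how much of the brighter signal comes from other transcripts was not tested.

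Sirt1, a protein deacetylase, gave 0.07 to 0.27 with a mean of 0.16 (adjusted p = 0.11). Among the genes of trafficking and folding, Vps26a, a retromer subunit, had a mean of 0.06, Herc4, a ubiquitin ligase, had -0.015 and Dnajc12, a co-chaperone, had 0.035. The mitochondrial RNA helicase Supv3l1 gave -0.05 to -0.01 on the 4 arrays. None of these passed the test. Hnrnph3, a splicing factor, had a mean of 0.04, Rufy2 0.09, 2510003E04Rik (now Kifbp, a kinesin binding protein) -0.06 and 2010107G23Rik (now Fam241b) -0.002. A dimmer 2510003E04Rik probe, well above background in all groups, had a mean of 0.05, and dimmer Rufy2 probes had -0.02 and 0.02.

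The remaining genes within 1 Mb included developmental transcription factors that were dim in these tissues. Neurog3, known from the endocrine pancreas, was well above background only in KO cortex and had a mean of -0.03. Its dimmer probe, not well above background in any group, gave -0.90 to -0.61 with a mean of -0.78. Atoh7, known from the retina, was well above background in both KO groups and neither WT group, with a mean of -0.17. Tspan15, a tetraspanin, had -0.01, and Gm7075 had 0.09. D10Bwg1070e ranged from -0.56 to 0.28 and D230019N24Rik from -0.27 to 0.29, and in both the 2 cortex arrays lay on opposite sides of 0. Srgn, a proteoglycan of secretory granules, gave -0.58 on hippocampus array 2 and -0.135 to -0.095 on the other 3 arrays.

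Over the whole window, 18 of the 109 members passed in the mean of both tissues, or 16.5% against the 10.9% of all genes. Of these, 13 were higher in KO (11.9% against 7.1% of all genes) and 5 were lower (4.59% against 3.81%). On chromosome 10 outside the window 78 of 670 genes passed, or 11.6%. In 20 Mb windows around Zfp874a on chromosome 13 and Rnase4 on chromosome 14, whose centres were chosen on measured values, 28 of 131 (21.4%) and 34 of 184 (18.5%) passed. No difference between these shares was tested.

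The number of calls changed with the arrays and the model. With any 1 of the 4 arrays left out, 0 members passed, and 0 passed with an intensity trend and robust prior in limma or with outlying local backgrounds kept. In the fit with all arrays, 38 members had an unadjusted p under 0.05 (34.9%, against 33.9% of all genes). Median centring without loess gave 76 higher and 14 lower members while calling 86.4% of all genes, and centring on the median of the genes tested gave 29 higher and 36 lower while calling 62.6%. Of the 18 genes, 9 kept 1 direction under every alternative run. Of the 18, 7 were well above background on all arrays of all groups, where 53.7% of all genes that passed were so. On no WT array were 9 of the 18, which include lower members, well above background. Of all genes that passed higher, 47.7% were not, a share that leaves out the lower genes and so is not directly comparable.

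**Figure D2:**
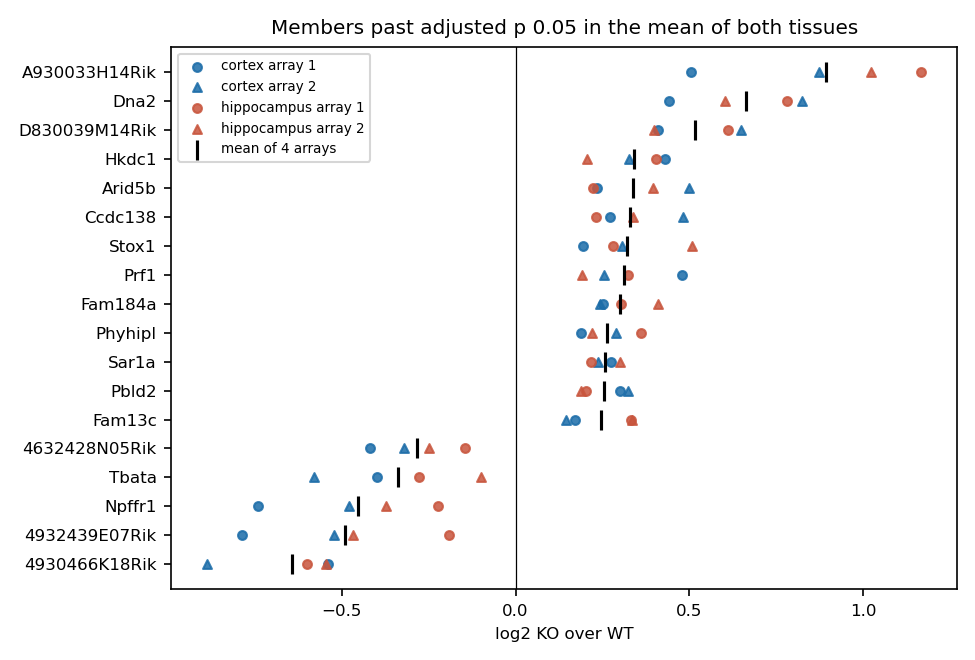
Log2 KO over WT on each of the 4 arrays for the 18 members past adjusted p 0.05 in the mean of both tissues, ordered by their mean (bar). The arrays of each gene lie on 1 side of 0. The largest mean is that of A930033H14Rik at 0.89.

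Of the members farther out, A930033H14Rik at 6.398 Mb gave 0.51 and 0.87 in cortex and 1.17 and 1.02 in hippocampus. All arrays were above 0, and the mean was 0.89 ± 0.08 (adjusted p = 0.023). A930033H14Rik was not well above background on any WT array, so that only a bound can be given. It was at least 1.47-fold higher in KO in either tissue, set against the lowest signal well above background. That bound was computed with the settings used here only. Under the alternative runs the mean log2 ratio of this gene stayed above 0 but ran from 0.20 to 2.37. D830039M14Rik gave 0.40 to 0.65 with a mean of 0.52 and Prf1, the pore-forming protein perforin of cytotoxic lymphocytes, 0.19 to 0.48 with a mean of 0.31. Neither was well above background on a WT array, and with median centring they were -0.16 and -0.19.

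Several members that passed were well above background on all arrays. Ccdc138 gave 0.27 and 0.48 in cortex and 0.23 and 0.34 in hippocampus. Its mean was 0.33 ± 0.06 (limma adjusted p = 0.042), and a dimmer probe had a mean of 0.36. The brighter Ccdc138 probe opens with a run of GT repeats and the dimmer one does not. Their average log2 signals were 12.96 and 8.16, and how much of the brighter signal comes from other transcripts was not tested. Arid5b, a DNA-binding protein, gave 0.22 to 0.50 with a mean of 0.34 (adjusted p = 0.049), while its dimmer probe, not well above background in any group, had 0.04. Sar1a, a small GTPase of vesicle budding from the endoplasmic reticulum, gave 0.22 to 0.30 with a mean of 0.26 (adjusted p = 0.043). Its dimmer probe, also well above background in all groups, gave -0.01 to 0.10 with a mean of 0.04. Fam13c had a mean of 0.25 and a dimmer probe at 0.14. Fam184a and Phyhipl had 0.30 and 0.26, not well above background in WT, with bounds of at least 1.18-fold in cortex for each, and with arrays centred on the median of the genes tested they were -0.38 and -0.35.

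Of the 5 lower members, Tbata, a gene named for its place in thymus and brain, gave -0.40 and -0.58 in cortex and -0.28 and -0.10 in hippocampus. All arrays were below 0, and the mean was -0.34 ± 0.06 (adjusted p = 0.042). With plain median centring it was 0.072. 4632428N05Rik (now Vsir, an immune checkpoint protein) gave -0.42 to -0.15 with a mean of -0.28 (adjusted p = 0.041), its dimmer probe had -0.25, and plain median centring put it at 0.29. Npffr1, a neuropeptide FF receptor, had a mean of -0.45 and was well above background only in KO hippocampus. 4930466K18Rik had -0.64, not well above background on any WT array but so on 1 KO cortex and 2 KO hippocampus arrays. For Npffr1 and 4930466K18Rik, detection in KO only and a ratio below 0 thus pointed in opposite directions, so no fold is given. 4932439E07Rik had -0.49.

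Across the 27 tested members with 2 or more probes well above background in some group, the 2 brightest probes gave means of the same sign in 20. Their median difference was 0.11 on the log2 scale. For the 5 of these genes that passed, the signs were the same in all 5.

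In each tissue alone, no member passed by limma, beside 0.0605% of all genes in cortex (0.0121% higher and 0.0484% lower in KO) and 0.0182% in hippocampus (0.00605% higher and 0.0121% lower). At an unadjusted p under 0.05, 26 members passed in cortex (23.9%, against 21.2% of all genes) and 29 in hippocampus (26.6%, against 23.8%). The difference between tissues in the KO effect passed for 0 members, as for 0 of all genes, with 6 members (5.5%) at an unadjusted p under 0.05 against 4.5% of all genes. With the single-channel fit that leaves the array out, 2 members passed in each tissue, beside 1.68% of all genes in cortex and 2.61% in hippocampus.

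With the settings used, the median size of the difference did not rise toward Tet1. The order of the classes depended on the settings: with plain median centring, given below, the class at 5 Mb or more had the smallest median. The median absolute log2 ratio was 0.0918 in the 27 members under 1 Mb, 0.0995 in the 19 at 1 to 2 Mb, 0.0895 in the 28 at 2 to 5 Mb and 0.138 in the 35 at 5 Mb or more. It was 0.114 over all members, 0.112 on chromosome 10 outside the window and 0.115 over all genes. Per array, the median under 1 Mb was 0.114 to 0.144, and over all genes it was 0.128 to 0.157. The shares that passed were 14.8%, 26.3%, 7.14% and 20% in the same order of distance. Spearman's rho between distance and size was 0.077 over the 109 members, given as a description since neighbours share arrays and probes differ in brightness.

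**Figure D3:**
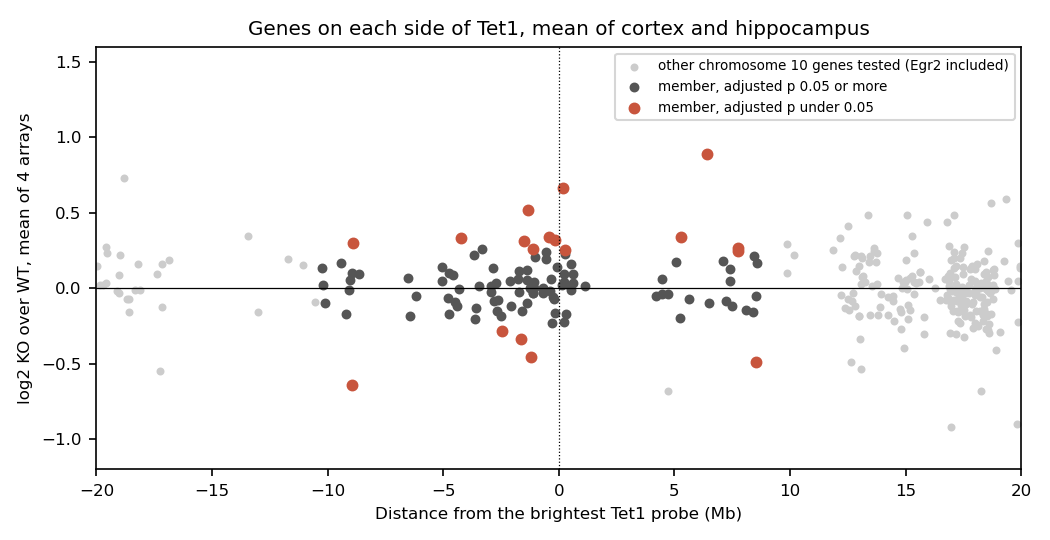
Mean log2 KO over WT of 4 arrays against distance from the brightest Tet1 probe. Members past adjusted p 0.05 are in red, the other members in dark grey and further genes of chromosome 10 in light grey. The red points lie on both sides of Tet1. Those within 1 Mb are Hkdc1 at -0.429, Stox1 at -0.152, Dna2 at 0.162 and Pbld2 at 0.247 Mb, and their grouping was not tested.

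**Figure D4:**
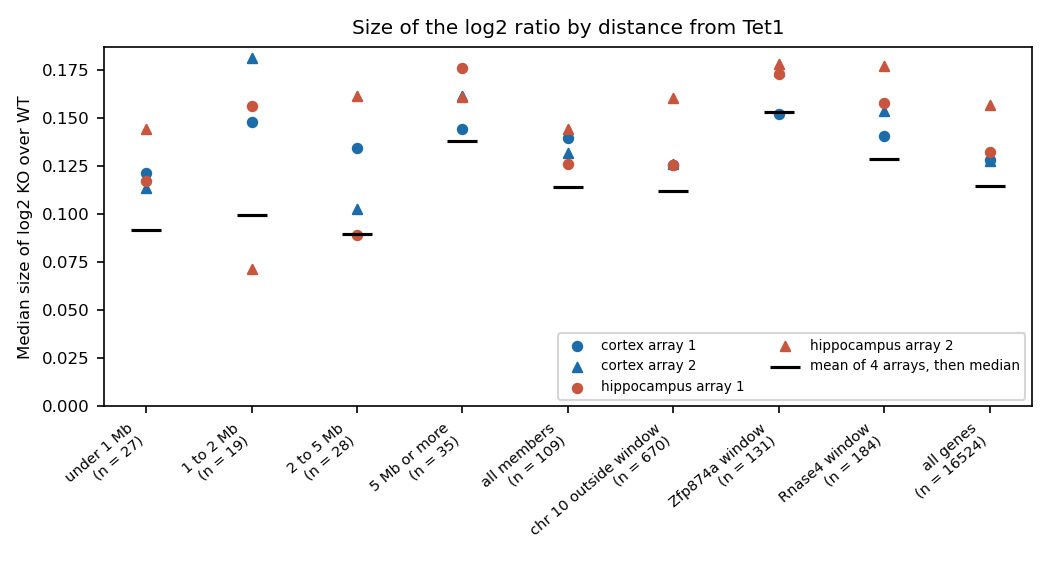
Median absolute log2 KO over WT by distance class and in comparison regions, per array (points) and for the mean of 4 arrays (bar). The bar is 0.0918 under 1 Mb and 0.115 over all genes, and the number of genes is given under each label.

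The median size was also taken on each side of Tet1. Under 1 Mb the median size was 0.106 in the 14 members at lower coordinates and 0.0918 in the 13 at higher ones. At 5 Mb or more it was 0.1 in 16 members at lower coordinates and 0.167 in 19 at higher ones. The difference between sides was not tested.

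All 4 arrays lay on 1 side of 0 for 50 members, or 45.9%, against 45.8% of all genes. Of these 31 were above and 19 below. Of the members, 58 (53.2%) had a mean above 0, against 56.4% of all genes. With the further condition of a mean at least 0.5 from 0, 4 members were left (3.67%, against 3.14%). A930033H14Rik, Dna2 and D830039M14Rik were higher (2.75%, against 2%) and 4930466K18Rik was lower (0.917%, against 1.14%). None of these 4 was well above background on any WT array. 4930466K18Rik was so on KO arrays only, though its log2 ratio was below 0.

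At the ends of the window, Dcbld1 and Gopc just inside had means of 0.13 and 0.02, and Lilrb4 and Vgll2 just outside had 0.15 and -0.09. At the higher end, 4932439E07Rik and Ipmk just inside had -0.49 and 0.17, and 2610034E01Rik and Zwint just outside had 0.10 and 0.30.

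The members were grouped into lists by broad role, and some genes fit the name of their list poorly. Man1a, a Golgi mannosidase, was placed under synapse, adhesion and neuronal signalling, for example. Of 18 tested genes of the mitochondrion and energy metabolism, 2 passed higher and 0 lower, with a median log2 ratio of 0.03. Of 17 genes of synapse, adhesion and neuronal signalling, 2 were higher and 1 lower, with a median of -0.05. Of 19 genes of chromatin, DNA and RNA, 2 were higher and 0 lower, with a median of 0.04. Of 14 genes listed under protein folding, ubiquitin and trafficking, 2 were higher and 0 lower, with a median of 0.07. The 2 were Sar1a and Stox1, and Stox1, a winged-helix protein, does not have that role. The other 43 members held 5 higher and 4 lower at a median of -0.01. Over all genes 7.1% passed higher and 3.81% lower, at a median of 0.03.

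A few members varied widely between arrays. Slc16a9, a monocarboxylate transporter family gene, gave 0.26 and 0.72 in cortex and -0.13 and -1.33 in hippocampus. Bicc1, an RNA-binding protein, gave 0.22 and 0.28 in cortex and -0.20 and -0.87 in hippocampus. Both were highest on cortex array 2 and lowest on hippocampus array 2, and neither passed (adjusted p = 0.73 and 0.44). The 14 choroid plexus markers, all tested, had medians of 0.53, 1.92, 0.01 and -2.80 on the same arrays in the same order. Their summed signal was 29297 to 425780 over the WT samples and 27938 to 282963 over the KO samples. Their part in the values of Slc16a9 and Bicc1 was not tested. Ankrd57 gave -0.69 on hippocampus array 2 and 0.02 to 0.09 on the others.

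Members also differed between the tissues. In WT, 22 members (20.2%) differed between cortex and hippocampus, against 15.1% of all genes. Of these 10 were higher in cortex (9.17%, against 7.23%) and 12 higher in hippocampus (11%, against 7.9%). In KO, 20 (18.3%) did, against 14.9%, with 8 higher in cortex (7.34%, against 7.52%) and 12 in hippocampus (11%, against 7.34%). Of the members, 17 passed in both genotypes, 8 higher in cortex and 9 higher in hippocampus, with 0 of opposite direction. The share of all genes that passed in both genotypes was not counted, so the 17 say nothing particular of the members. With any 1 array left out, which leaves 1 array in a tissue, fewer members passed in WT and in KO. The summed signal of the hippocampus markers was 24260 to 25356 in WT cortex and 56253 to 62653 in WT hippocampus. That of the cortex markers was 71408 to 74729 in WT cortex and 56370 to 62466 in WT hippocampus. The striatum markers summed to 198583 to 240544 in WT cortex and 38382 to 41193 in WT hippocampus, and their part in the differences between tissues was not tested.

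Hkdc1 had a log2 signal of 11.30 and 11.28 in WT cortex and 10.11 and 9.85 in WT hippocampus, and the tissues did not overlap. Cortex over hippocampus was 1.31 ± 0.15 in WT (limma adjusted p = 0.0018) and 1.38 ± 0.15 in KO. Lrrtm3, a synaptic adhesion protein, was 1.42 ± 0.14 higher in WT cortex and 1.09 ± 0.14 higher in KO cortex. Zfp365 was higher in cortex by 0.67 in WT and 0.61 in KO, and Slc35f1 by 0.58 and 0.60. Neurog3 also passed, but it was well above background only in KO cortex, so no difference in level is given.

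Tbata had a log2 signal of 8.87 and 8.97 in WT cortex and 10.71 and 10.45 in WT hippocampus. Cortex over hippocampus was -1.67 ± 0.10 in WT and -1.97 ± 0.10 in KO, with no overlap of samples. Adamts14, a collagen-processing protease, was -1.17 in KO. Man1a, a Golgi mannosidase, was -0.71 in KO. Both also passed in WT, where they were not well above background in cortex, so no difference in level is given there. Fam13c was -0.57 and -0.75, and Tspan15 was -0.34 and -0.62. These 10 genes were chosen for passing in both genotypes, so their shared direction is no finding.

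**Figure D5:**
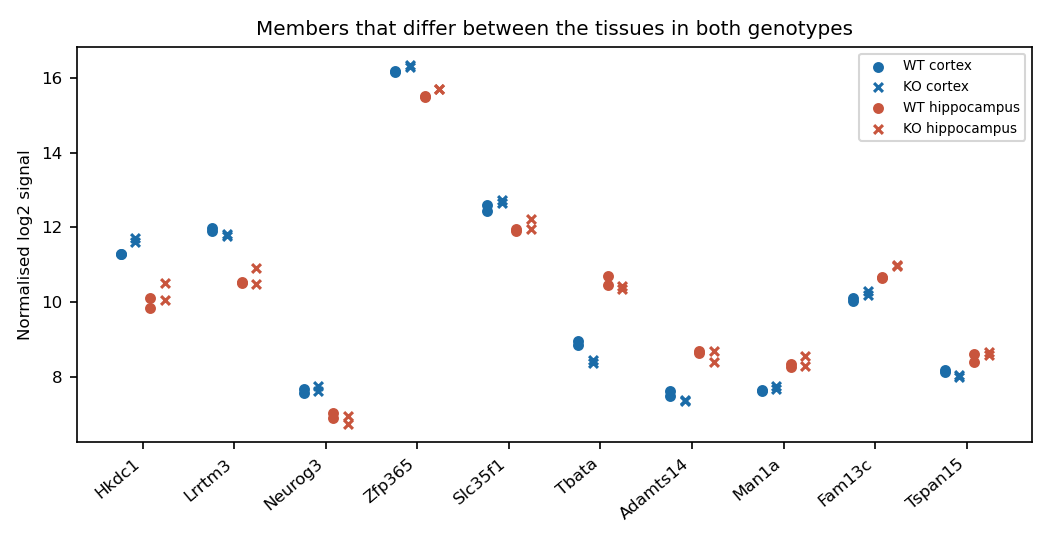
Normalised log2 signal of 10 members in each of the 8 samples, by tissue (colour) and genotype (symbol). The genes were chosen for passing between the tissues in both genotypes, 5 higher in cortex on the left and 5 higher in hippocampus on the right, and levels are not to be compared between genes.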

How the data were processed

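RNA from cortex and hippocampus of Tet1 KO and WT mice was compared on 4 two-colour Agilent arrays, 2 a tissue. The authors deposited scanner output of Feature Extraction 10.1.1.1, with linear intensity values per spot, per the file headers, and a table of log2 values whose scale and centring are unstated. That table, used as an alternative, had its direction taken as KO minus WT and correlated with the loess ratios at 0.946 to 0.964. The submitters' processing notes name limma; further steps were not given in the sources used here. Scanner files of WT and KO with 1 number and tissue were identical, so each array was read once.

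Mean signals were corrected with normexp (offset 50) on the local background, in R 4.3.3 with limma 3.58.1. Spots with an outlying local background took the array's median background. Log ratios (Cy5, KO, over Cy3, WT) were normalised by loess (span 0.3), and 1377 control spots were left out. A gene was its brightest probe, tested when that probe was well above background on both arrays of any group. lmFit and eBayes were fitted across 16524 genes (2 residual and 2.62 prior degrees of freedom) with Benjamini-Hochberg adjustment at 0.05. Tissues were compared within a genotype by a separate-channel fit with intraspot correlation 0.190, and a fit without one array kept that correlation. The scripts were tested on simulated data. For a probe not well above background in a group, a fold is a bound, open to dye bias without a dye swap. The precision is limited by the number of arrays.

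Named genes were every tested member within 1 Mb, those that passed (up to 12 a direction), up to 5 a tissue called in both genotypes, and 2 at each window end; Slc16a9, Bicc1 and Ankrd57 were added after their values were seen. RefSeq symbols (GRCm38.p6, names only) matched 120 members. The members, lists and rules were chosen with earlier results of these data known.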

Additional observations from a re-analysis of the deposited data

How the results depend on the processing

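The number of members that passed in the mean of both tissues was 18 with the settings used. It was 9 with Feature Extraction's processed signals (7.1% of all genes passed), 7 with the strict filter on dim probes (7.8%), 0 with outlying local backgrounds kept (0.0182%), 0 with an intensity trend and robust prior (0%), and 0 to 0 with 1 array left out (0% to 0.0119%). Median centring of the arrays, without loess, gave 90 in the mean, 85 in cortex, 87 in hippocampus and 94 with one sign on all 4 arrays. That setting put the median of the genes tested at 0.53 and called 86.4% of all genes in the mean. Centring on the median of the genes tested instead, an alternative chosen after seeing the data, gave 65, 50, 52 and 80. It called 62.6% of all genes in the mean. Under both centrings the shares of all genes for cortex, hippocampus and one sign are not given here. Those counts therefore say nothing particular of the members. In cortex the fit with no replicate block gave 2 members (1.68% of all genes). In hippocampus, processed signals gave 4 (2.25%), no replicate block 2 (2.61%) and the replicate block across tissues 1 (2.44%). The replicate block across tissues gave 19 members in the mean (14.6%). Replicate numbers are shared between tissues as a number only: deviations of same-numbered log ratios correlated at 0.16, those of KO levels at 0.24 and those of WT levels at -0.081.

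The comparison of tissues gave 5 to 15 members in WT and 5 to 15 in KO with 1 array left out, and 12 in WT with the replicate block within one genotype (9.54% of all genes).

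Under plain median centring the mean log2 ratio was -0.11 for Dna2, -0.23 for Pbld2, -0.16 for D830039M14Rik, -0.19 for Prf1, 0.072 for Tbata and 0.29 for 4632428N05Rik. Under centring on the genes tested it was -0.15 for Stox1, -0.64 for Dna2, -0.76 for Pbld2, -0.69 for D830039M14Rik, -0.72 for Prf1, -0.38 for Fam184a and -0.35 for Phyhipl.

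The median size under 1 Mb was 0.560 with plain median centring, 0.210 with centring on the genes tested, 0.136 with processed signals, 0.115 with no filter on dim probes and 0.111 in the authors' deposited log2 values. At 1 to 2 Mb it was 0.646 and 0.432 with those centrings and 0.0439 with the strict filter. At 2 to 5 Mb it was 0.584 and 0.212, and 0.137 with outlying backgrounds kept. At 5 Mb or more it was 0.534 and 0.288, then 0.169 with processed signals, 0.117 with outlying backgrounds kept, 0.125 with the strict filter, 0.171 with the mean of the gene's probes and 0.120 in the deposited values. Over all members it was 0.583 and 0.241, then 0.133 with processed signals, 0.101 with outlying backgrounds kept, 0.0913 with the strict filter and 0.0973 in the deposited values. The cause of these changes was not tested. With 1 array left out the median size ran from 0.114 to 0.122 under 1 Mb, from 0.0634 to 0.132 at 2 to 5 Mb and from 0.103 to 0.128 over all members.

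With 2 arrays a tissue, and many WT signals near background, small differences could not be resolved here.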
